A study of Mus musculus with 38 samples.

Results

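Brain clonogenic cultures labelled IR and IS were compared by RNA sequencing, with 5 libraries in each group, which is 10 of the 38 samples in the series. The libraries were chosen by their labels alone. The series asks how exosomes from insulin-resistant (IR) or insulin-sensitive (IS) adipocytes act on 4T1, a mouse line of mammary adenocarcinoma cells that stands in for triple-negative breast cancer. Exosomes are small membrane vesicles that cells release, and the adipocytes were differentiated from the mouse 3T3-L1 pre-adipocyte line.

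The IR group carries the label of 4T1 cells from a brain clonogenic assay in the IR arm, and the IS group the same label in the IS arm. A further 5 untreated brain clonogenic libraries served as control and are given as background. The protocol shared by all samples describes exosomes added on day 0 and 72 hours of culture, and the labels do not say how or when the brain groups received them. In a clonogenic assay, dissociated tissue is plated so that surviving tumour cells grow out, and cells of the host organ can grow with them. The labels speak of biological replicates but name no separate animals or cultures, so the p-values measure the spread between these samples only.

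Endothelial cells line blood vessels, and sprouting vessels use vascular endothelial growth factor (VEGF), angiopoietin and Notch signals. Microglia are the resident macrophages of the brain and depend on the receptor Csf1r, while type I interferon switches on antiviral genes in most cells. Insulin and the related growth factor Igf1 act through the receptors Insr and Igf1r.

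The cell identity on the label was checked first. Levels are CPM, each gene's count relative to the size of its library after scaling for library composition. Epcam, a surface protein of epithelial cells, was at 0.507 to 1.70 CPM in the IR libraries, 0.279 to 2.64 CPM in the IS libraries and 0.616 to 2.91 CPM in the control libraries. In untreated cultured 4T1 cells of the same series, a table scaled separately, Epcam was at 179 ± 12.2 CPM (SD, n = 3). The epithelial keratin Krt7 was at most 1.80 CPM in IR and 2.94 CPM in IS, against 681 ± 13.5 CPM in cultured 4T1 cells (SD, n = 3). Epithelial transcripts were not absent. The list of 20 epithelial and mammary tumour genes, 8 of them tested, summed to 287 to 385 CPM in IR and 237 to 452 CPM in IS. The epithelial adhesion gene Cdh1 was a tested member, and its level in the brain libraries is part of these sums. In untreated cultured 4T1 cells Cdh1 alone averaged 453 ± 10.1 CPM (SD, n = 3). Xist, the long RNA that coats the silenced X chromosome, was at 369 to 571 CPM in IR and 276 to 660 CPM in IS, against 0.0298 ± 0.0517 CPM in cultured 4T1 cells (SD, n = 3). For Epcam, Krt7 and Xist the brain libraries therefore did not carry the levels of cultured 4T1 cells, and they are called below by their assay and arm.

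Markers of host cells were present. Ttr, a transthyretin gene typical of choroid plexus, was at 685 to 1608 CPM in IR, 1073 to 3328 CPM in IS and 235 to 1053 CPM in control. Foxj1, a regulator of motile cilia in ependymal cells, was at 50.5 to 81.1 CPM in IR and 48.6 to 65.2 CPM in IS. The neuronal genes Rbfox3, Snap25 and Syt1 did not exceed 0.946 CPM in IR and 1.28 CPM in IS. The microglial genes Aif1 and Cx3cr1 stayed at or below 0.776 CPM in IR and 1.49 CPM in IS, and the myelin gene Mog at 0 in IR and at most 0.0933 CPM in IS. Other members of the same lists were expressed. Mbp, a further myelin gene, was at 78.1 to 117 CPM in IS, and oligodendrocyte genes summed to 129 to 175 CPM in IR and 133 to 201 CPM in IS. Macrophage and microglia genes, Csf1r among them, summed to 794 to 3152 CPM in IR and 1621 to 6447 CPM in IS. Mbp and Csf1r are not markers of host cells alone. In the untreated cultured tumour cells, scaled separately, Mbp averaged 31.1 ± 2.00 CPM and Csf1r 10.7 ± 1.07 CPM (SD). Csf1r was at 13.4 to 27.1 CPM in IR and 20.1 to 74.4 CPM in IS. In such bulk libraries, fewer cells of a type and less RNA per cell cannot be told apart.

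Total expected counts per library ran between 8800303 and 10320407 in IR and between 9599235 and 13272583 in IS. Along the first principal component of log CPM, which held 35.9% of the variance, the IR libraries spread between -48.6 and -5.12, the IS libraries between -29.4 and 21.2, and the control libraries between 22.3 and 25.7. IS replicate 2, at -29.4, lay among the IR libraries. IS replicate 1, at -6.40, was also inside the IR range, and lay nearest to IR replicate 4, at -5.12. Along the second component the IR libraries spread between -10.7 and 1.59, and the IS libraries between 8.17 and 26.9, with no overlap. There IS replicate 2, at 8.17, and IR replicate 4, at 1.59, each lay on the side of its own group. Counts of calls, and values that moved without IS replicate 2 or IR replicate 4, are given at the end.

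Between IR and IS, 6 of 12924 genes tested passed an adjusted p of 0.05 (0.0464%), 3 higher and 3 lower in IR. Of the genes tested, 9.97% were higher and 8.17% lower in IR at an unadjusted p under 0.05, and 52.1% had a log2 fold change above 0. The level of every called gene separated the 5 IR libraries from the 5 IS libraries with no overlap, IS replicate 2 and IR replicate 4 included. All IR libraries lay above all IS libraries for 1.09% of genes and below them for 0.797%.

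Rsrp1, which encodes an arginine and serine rich nuclear protein, was at 187, 148, 172, 156 and 193 CPM in the IR libraries, against 291, 335, 296, 283 and 236 CPM in the IS libraries. The highest IR library lay below the lowest IS library, and the control libraries, at 127 to 186 CPM, lay on the IR side. Rsrp1 fell by 0.75 on the log2 scale in IR (SE 0.106, adjusted p = 0.024, edgeR quasi-likelihood test, n = 5 each).

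Cemip2, a transmembrane protein linked to hyaluronan turnover, was at 56.7, 63.0, 73.7, 54.4 and 56.0 CPM in IR, against 40.2, 45.9, 41.2, 39.9 and 35.7 CPM in IS. All IR libraries were above all IS libraries, and the control libraries, at 37.0 to 40.5 CPM, lay with IS. The log2 fold change was 0.58 (SE 0.0868, adjusted p = 0.024, edgeR).

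Pkdcc, a secreted protein kinase, was at 13.1, 13.8, 12, 12.6 and 13.2 CPM in IR, against 20.3, 16.8, 17.7, 18.9 and 20.6 CPM in IS. The IR libraries were tightly grouped below the IS libraries and below the control libraries, which held 15.6 to 17.8 CPM. Pkdcc fell by 0.55 on the log2 scale in IR (SE 0.0882, adjusted p = 0.0379, edgeR).

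The other called genes fell outside the naming rule and were chosen after their values were seen. Pde10a, a phosphodiesterase that breaks down cyclic nucleotides, averaged 10.1 ± 0.538 CPM in IR and 6.12 ± 0.622 CPM in IS (SD, n = 5 each), a log2 fold change of 0.72 (adjusted p = 0.0442, edgeR). The transcript 2900026A02Rik averaged 107 ± 11.3 CPM in IR and 77.7 ± 5.90 CPM in IS (SD, n = 5 each), a log2 fold change of 0.47 (adjusted p = 0.0379, edgeR). G530011O06Riky averaged 1.97 ± 0.799 CPM in IR and 5.70 ± 1.12 CPM in IS (SD, n = 5 each) and fell by 1.52 on the log2 scale (adjusted p = 0.0475, edgeR). Its count is uncertain, since reads may be shared with a near-identical copy, and the Y-linked genes Ddx3y, Uty, Kdm5d and Eif2s3y had no count in any of the 15 brain libraries.

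**Figure D1:**
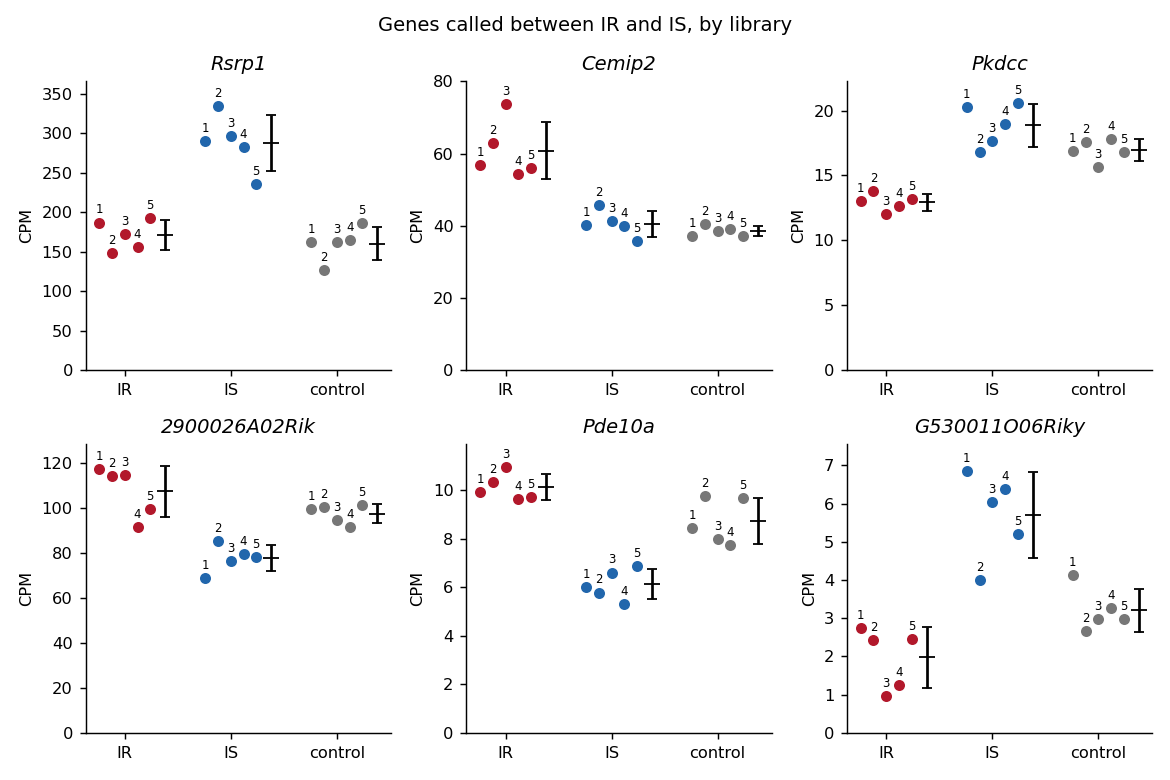
Levels of the 6 called genes in CPM (vertical axis, from 0) in each library of the IR, IS and control groups (horizontal axis). Each point is a library with its replicate number, and the bar beside each group is the mean ± SD (n = 5). For each gene no IR point reaches the range of the IS points.

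None of the 55 gene lists examined, which held 763 tested genes in all, had a member past the adjusted p of 0.05. The lists are therefore described by their members' levels, by the median log2 fold change beside the 0.01 over all genes tested, and by counts at a looser adjusted p of 0.1, which 2.24% of all genes reached as higher and 2.44% as lower in IR. No test of a list was made. Lists can share members, as the macrophage and lysosome lists share Ctss, so their medians are not independent.

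Endothelial genes had the highest list median, 0.98 over 23 tested members of 24. Their log2 fold change was above 0 for 22 members, 5 of them reached an adjusted p under 0.1 as higher, and 21 had an unadjusted p under 0.05 as higher. The summed level of the list was 1947, 1659, 2378, 1143 and 2232 CPM in the IR libraries, against 962, 1881, 834, 671 and 584 CPM in the IS libraries, and 418 to 584 CPM in control. IS replicate 2 lay within the IR range, and IR replicate 4 was the lowest of its group but above the other 4 IS libraries.

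Cdh5, the adhesion molecule of endothelial junctions, was at 280, 239, 250, 148 and 345 CPM in IR, against 102, 247, 94.4, 69.6 and 36.9 CPM in IS. Every IS library other than replicate 2 was below every IR library. The log2 fold change was 1.2 (SE 0.357, adjusted p = 0.0926, edgeR). Pecam1, another junction protein, had a log2 fold change of 1.14 (adjusted p = 0.113) and Kdr, the main VEGF receptor, one of 0.66 (adjusted p = 0.155). Flt1, a further VEGF receptor, was at 0.98 (adjusted p = 0.0682), and Erg, an endothelial transcription factor, at 1.41 (adjusted p = 0.0774). Vwf, the clotting factor of endothelial granules, was at 19.4, 21.9, 22.9, 14.9 and 24.4 CPM in IR and 13.4, 12.6, 25, 16.9 and 18.9 CPM in IS, with overlapping groups and an adjusted p of 0.595. Mfsd2a, a lipid transporter of the blood-brain barrier, was the single member with a negative log2 fold change, -0.69 (adjusted p = 0.194).

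Ligands and receptors of vessel growth had medians on the same side. The VEGF and angiopoietin list had a median of 0.37 over 18 tested members, 3 of which reached an adjusted p under 0.1 as higher. Angpt2, a ligand that loosens vessels for sprouting, was at 401, 361, 538, 287 and 517 CPM in IR, against 239, 372, 204, 178 and 144 CPM in IS. Its IS replicate 2 again lay within the IR range, and the log2 fold change was 0.89 (SE 0.208, adjusted p = 0.0717, edgeR). Apln, a peptide of endothelial tip cells, had a log2 fold change of 1.21 (adjusted p = 0.139).

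The Notch list had a median of 0.52 over 10 tested members, 3 of which reached an adjusted p under 0.1 as higher. Dll4, the Notch ligand of tip cells, was at 33.8, 20.7, 9.89, 9.19 and 41.0 CPM in IR, against 6.35, 17.7, 3.91, 2.23 and 1.28 CPM in IS. The groups overlapped through IS replicate 2, and the log2 fold change was 1.87 (SE 0.544, adjusted p = 0.0875, edgeR). Notch1 had a log2 fold change of 0.55 (adjusted p = 0.0787), and Notch4, a receptor found mainly in endothelium, one of 1.12 (adjusted p = 0.136). Some of these vessel genes were also expressed in untreated cultured 4T1 cells, scaled separately. Means there were 30.4 CPM for Dll4, 50.8 CPM for Flt1, 90.2 CPM for Apln and 20.9 CPM for Mfsd2a (n = 3). Cdh5, Pecam1, Kdr, Erg, Vwf and Notch4 averaged at most 0.141 CPM there.

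Macrophage and microglia genes had the lowest list median, -1.19 over 19 tested members of 27. Of these members, 12 reached an adjusted p under 0.1 as lower in IR, and Tmem119 alone had a log2 fold change above 0. The summed level was 1589, 3152, 794, 2265 and 2263 CPM in the IR libraries, against 3365, 1621, 4496, 6447 and 5732 CPM in the IS libraries, and 3233 to 5336 CPM in control. IS replicate 2 lay within the IR range, and the other 4 IS libraries lay above every IR library.

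Csf1r, the receptor that macrophages need for survival, was at 17.7, 27.1, 14.4, 24.5 and 13.4 CPM in IR, against 30.4, 20.1, 41.4, 66.5 and 74.4 CPM in IS. The log2 fold change was -1.26 (SE 0.312, adjusted p = 0.0756, edgeR). Trem2, a lipid-sensing receptor of microglia, was at 42.2, 75.4, 15.5, 81.1 and 66.5 CPM in IR, against 106, 47.1, 150, 234 and 208 CPM in IS, with a log2 fold change of -1.41 (adjusted p = 0.0774). For both genes IS replicate 2 was the only IS library inside the IR range. Spi1, the transcription factor that directs myeloid development, had a log2 fold change of -1.39 (adjusted p = 0.0756), and Tyrobp, the adaptor that signals for Trem2, one of -1.56 (adjusted p = 0.0774).

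**Figure D2:**
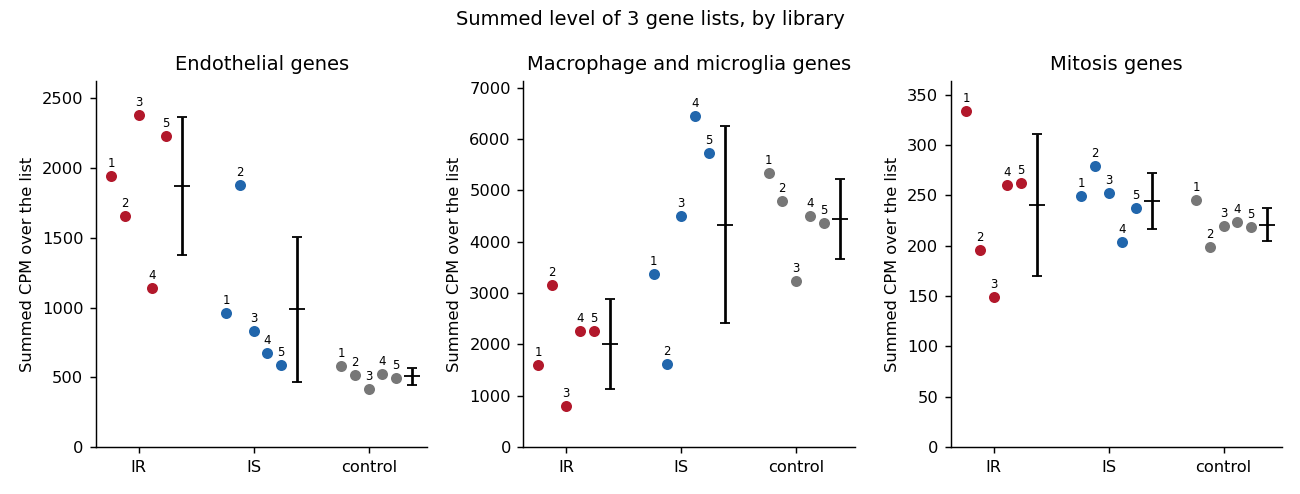
Summed CPM (vertical axis, from 0) over the endothelial, the macrophage and microglia, and the mitosis lists in each library of the IR, IS and control groups. Points are libraries with their replicate numbers and bars are mean ± SD (n = 5). IS replicate 2 stands at 1881 CPM for endothelial genes and at 1621 CPM for macrophage genes, within the IR range for both.

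Lysosomal enzymes, which macrophages hold in quantity, had a list median of -0.36, with 8 of 23 tested members at an adjusted p under 0.1 as lower. Their summed level was 23775 to 36374 CPM in IR, 27277 to 48889 CPM in IS and 38894 to 40891 CPM in control. Ctss, a cysteine protease of lysosomes, had a log2 fold change of -1.21 (adjusted p = 0.0756). The share of this difference that moves with the macrophage genes was not tested.

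Igf1, which brain macrophages also make, was at 13.4, 28.9, 3.30, 27.8 and 22.3 CPM in IR, against 35.9, 13.9, 72.7, 107 and 99.7 CPM in IS. Its IS replicate 2 lay within the IR range, and the log2 fold change was -1.79 (SE 0.483, adjusted p = 0.0774, edgeR). The log2 fold changes of both receptors were positive, and neither passed 0.05. Igf1r was at 255, 314, 340, 260 and 252 CPM in IR, against 194, 251, 217, 230 and 190 CPM in IS, with no overlap and a log2 fold change of 0.39 (SE 0.0975, adjusted p = 0.0756, edgeR). Insr, the insulin receptor, was at 90.8, 92.2, 99.6, 86.0 and 79.6 CPM in IR, against 59.2, 80.4, 76.3, 71.8 and 64.6 CPM in IS, and overlapped by 1 library (log2 fold change 0.35, SE 0.0859, adjusted p = 0.0756, edgeR). Irs1, the adaptor below the insulin receptor, had a log2 fold change of 0.17 (adjusted p = 0.452). The whole insulin and IGF list had a median of 0.20 over 16 tested members, with 2 at an adjusted p under 0.1 as higher and 1 as lower.

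Interferon response genes had a list median of -0.44, with 3 of 21 tested members at an adjusted p under 0.1 as lower and none as higher. Their summed level was 422, 358, 579, 438 and 548 CPM in IR, against 593, 670, 614, 453 and 490 CPM in IS, and 291 to 519 CPM in control. The IR and IS groups overlapped, with IS replicates 4 and 5 inside the IR range. The control median, at 388 CPM, lay below the IR median of 438 CPM and the IS median of 593 CPM. Ifit3, an antiviral protein, was at 4.44, 2.74, 6.11, 7.69 and 6.74 CPM in IR, against 14.8, 10.2, 10.5, 8.19 and 14.2 CPM in IS. It was the 1 member of the list whose IR libraries all lay below the IS libraries (log2 fold change -1.07, SE 0.230, adjusted p = 0.0682, edgeR). H2-T23, a nonclassical MHC class I molecule, was at 10.8, 10.2, 9.21, 9.64 and 14.4 CPM in IR, against 20.4, 15.7, 19.4, 22.6 and 20.3 CPM in IS, also with no overlap (log2 fold change -0.85, adjusted p = 0.0682, edgeR). It was the 1 of 13 tested members of the MHC class I list, with a median of -0.25, that reached an adjusted p under 0.1. Both genes were chosen after their values were seen.

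Matrix glycoprotein genes had a list median of 0.15, and 6 of 24 tested members reached an adjusted p under 0.1 as higher. Their summed level was 14031 to 16574 CPM in IR, above the 11560 to 13821 CPM in IS, and 16286 to 19556 CPM in control. Hspg2, the basement membrane proteoglycan perlecan, was at 908, 870, 1101, 919 and 803 CPM in IR, against 431, 715, 714, 661 and 526 CPM in IS, with no overlap (log2 fold change 0.59, SE 0.122, adjusted p = 0.0682, edgeR). Fn1, the adhesive protein fibronectin, was at 4781, 3658, 3775, 3662 and 4130 CPM in IR, against 1859, 3968, 2740, 1985 and 1514 CPM in IS, and overlapped through IS replicate 2 (log2 fold change 0.73, adjusted p = 0.0815, edgeR). The adhesion receptors Itga6 and Itga3, chosen after their values were seen, had log2 fold changes of 0.44 and 0.37 with no overlap (adjusted p = 0.0682 for both, edgeR).

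Genes associated with brain metastasis had a list median of 0.21 over 16 tested members, with 2 at an adjusted p under 0.1 as higher and 1 as lower. Hbegf, a ligand of the EGF receptor, was at 53.3, 49.6, 44.3, 48.6 and 55.4 CPM in IR, against 38.1, 40.0, 42.3, 33.7 and 39.0 CPM in IS, with no overlap (log2 fold change 0.38, SE 0.0821, adjusted p = 0.0682, edgeR). The control libraries, at 62.1 to 78.1 CPM, lay above both groups. Alcam, a cell adhesion molecule, had a log2 fold change of -0.95 (adjusted p = 0.0774).

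Several smaller lists had negative medians, with few members at an adjusted p under 0.1. The median was -0.37 for CC chemokines (1 of 7 lower), -0.36 for complement genes (2 of 14 lower) and -0.31 for acute phase genes (0 of 11). Immediate early genes had a median of 0.22 over 21, with 4 higher and 2 lower at that level. Glycolysis and hypoxia genes had a median of 0.15 over 23 tested members, with 3 higher and 0 lower at that level. The log2 fold change was above 0 for 21 of them, against 52.1% of all genes tested. The lists of basic cell functions that follow had medians near that of all genes. Mitosis genes had a median of -0.05 over 25 tested members, ribosomal protein genes 0.03 over 32, oxidative phosphorylation genes 0.01 over 26, cholesterol genes 0.05 over 23 and fatty acid oxidation genes 0.00 over 21. None of the mitosis, ribosomal or oxidative phosphorylation members had an unadjusted p under 0.05. Mki67, a marker of dividing cells, was at 12.5 to 36.8 CPM in IR and 15.1 to 30.3 CPM in IS (adjusted p = 0.688), and the intermediate filament gene Vim at 946 to 1454 CPM in IR and 1208 to 1711 CPM in IS (adjusted p = 0.242). Fibroblast genes had a median of 0.00 over 17 tested members and pericyte and smooth muscle genes 0.06 over 13. Astrocyte genes had a median of -0.26 over 12 tested members. At an adjusted p under 0.1, 2 of them were lower and 0 higher, against 2.44% of all genes as lower. The filament gene Gfap had a log2 fold change of -0.89 (adjusted p = 0.0985, edgeR). Aldoc had one of -0.60 with no overlap of the IR and IS libraries (adjusted p = 0.0815, edgeR).

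**Figure D3:**
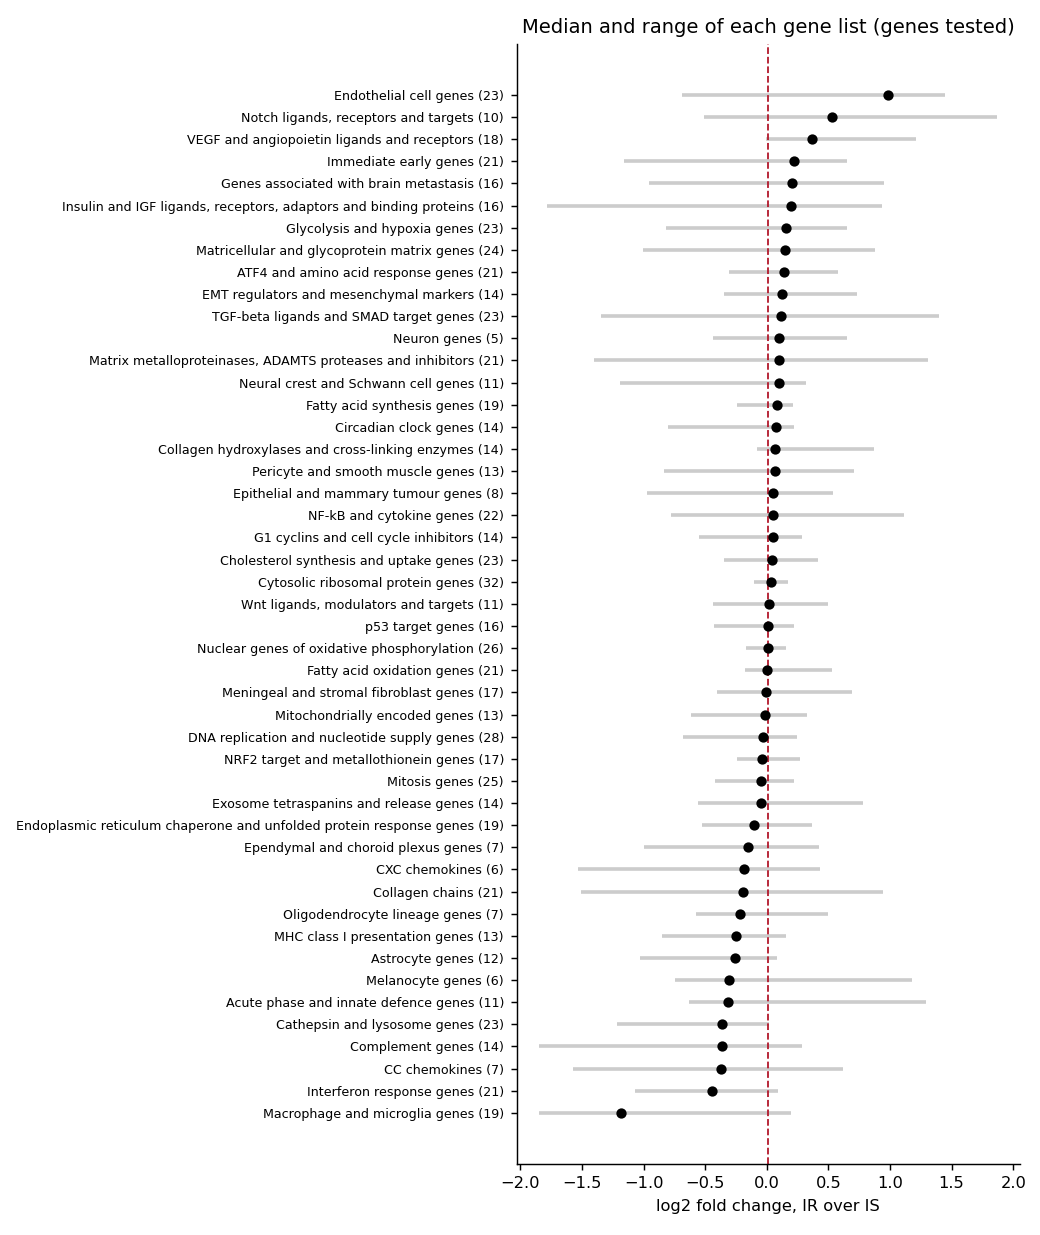
Median (point) and full range (grey bar) of the log2 fold change, IR over IS (horizontal axis), for each list with at least 5 tested members, whose number stands in brackets. The dashed line is the median of all genes tested, 0.01. Endothelial genes lie highest at 0.98 and macrophage and microglia genes lowest at -1.19.

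The number of calls depended on single libraries, both those between the groups and others. All 6 called genes stayed called without IS replicate 2, where 1139 genes passed (542 higher and 597 lower in IR), and without IR replicate 4, where 145 passed. They also stayed called without both, with 1453 genes, and without IS replicate 1, with 200. None of the 6 stayed called without IR replicate 2 or 3 or IS replicate 3 or 4, where edgeR called no gene, nor with the IR and IS libraries alone, where 1791 genes had an unadjusted p under 0.05. Without IR replicate 1, IR replicate 5 or IS replicate 5 there were 3, 2 and 1 calls. DESeq2 called 603 genes over all libraries.

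Calls among endothelial and macrophage genes changed with the libraries between the groups. Without IS replicate 2, 21 of 23 endothelial genes were called higher and 18 of 19 macrophage genes lower, and without IR replicate 4, 1 of each. Over all genes, 542 of 12872 were called higher and 597 lower without IS replicate 2. Without IR replicate 4, 103 of 12901 were called higher and 42 lower. Without both, the list median was 1.5 for endothelial, 0.61 for VEGF and angiopoietin, 0.83 for Notch, 0.33 for brain metastasis and -1.52 for macrophage genes. In the same fit the log2 fold change was 1.88 for Cdh5, 1.81 for Pecam1, 1.11 for Kdr, 2.92 for Dll4 and 1.86 for Notch4, against -1.55 for Csf1r and -1.81 for Trem2. These libraries were singled out for lying between the groups, so leaving them out moves the groups apart by construction and gives no support to the calls.

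**Figure D4:**
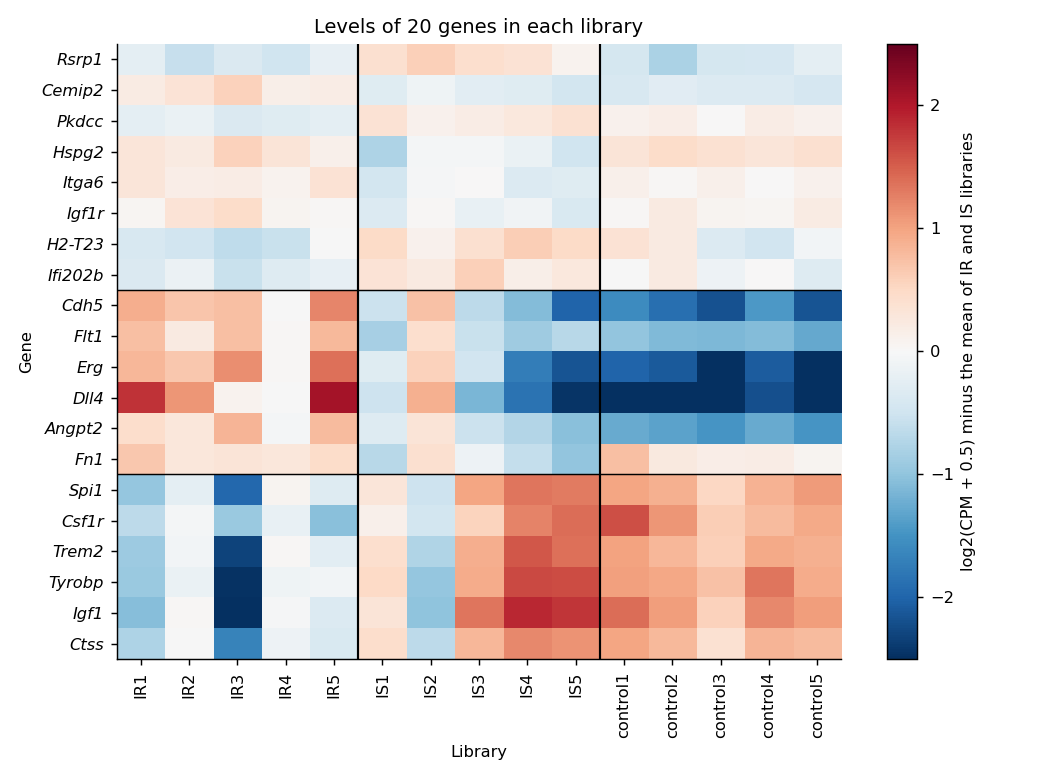
Levels of 20 genes (down the page) in each IR, IS and control library (across), as log2(CPM + 0.5) minus the mean over the IR and IS libraries, with genes chosen after their values were seen. In the top block the IR and IS libraries do not overlap. In the endothelial and matrix block and the macrophage block IS2 has the colour of the IR libraries and IR4 is near 0. For Csf1r, Trem2 and Igf1 in the macrophage block, IR2 is near 0 as well.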

How the data were processed

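The authors deposited expected counts per gene from RSEM, per the file headers and labels. Per the submitters' processing notes, the tools were Trimmomatic, STAR, featureCounts and DESeq2 (no version listed) with GRCm38 and GRCm39 as builds. No source says which build this table used, and no coordinates are printed. Replicate numbers are those of the table's columns. Ensembl IDs were named from the deposited tumour table (52139 genes) or the reference (3257), and 91 stayed unnamed. Expected counts were rounded to whole numbers. Genes at 3 CPM or more in at least 3 of the 15 brain libraries were tested in 1 fit of the 3 groups with edgeR 4.0.16 (TMM scaling, quasi-likelihood test, Benjamini-Hochberg over all genes, called at 0.05; R 4.3.3). SE is the log2 fold change divided by the root of F. DESeq2 1.42.0 was an alternative. The pipeline was tested on simulated data. The cultured 4T1 table, with 3 further columns left unused, gave marker levels only.

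The naming rule took called genes that averaged at least 10 CPM and had a non-predicted symbol, the first 3 symbols of each cell type list where they bear on a result, and Insr, Irs1, Vim, Mki67 and Xist; other genes were chosen after their values were seen. The comparison, the lists and the rule were set with earlier results of these data known.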

Additional observations from a re-analysis of the deposited data

Results flagged for a closer look

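Within groups of 5, the level of 1 library stood far from the other 4 in 8 of 176 checks, and chance alone gives about 1 in 20. Of these, 6 concern IS replicate 2. It was above the other IS libraries for Kdr at 72.3 CPM (others 28.9 to 37.7), Flt1 at 65.0 CPM (others 26 to 32.7), Ptprb at 138 CPM (others 17.3 to 50.1), Adamts9 at 50.9 CPM (others 8.90 to 18.8) and Cdh2 at 195 CPM (others 136 to 147). It was below them for Slfn2 at 11.3 CPM (others 14.3 to 15.3). IS replicate 5 was above the other IS libraries for Mbp at 117 CPM (others 78.1 to 88.9) and for Kl, a choroid plexus gene, at 102 CPM (others 29.7 to 42.1).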

How the results depend on the processing

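The count of 6 called genes stayed at 6 with RLE size factors and was 4 with upper quartile scaling. It was 3 with library totals and 3 with a filter of 10 CPM, 334 with no filter on low counts, 603 with DESeq2 and 605 at an adjusted p of 0.1, a level chosen after seeing the data. With the IR and IS libraries alone it was 0 in edgeR, with 1791 genes at an unadjusted p under 0.05. Leaving out 1 library at a time gave between 0 and 1139 calls: 0 without IR replicate 2 or 3 or IS replicate 3 or 4, 3 without IR replicate 1, 2 without IR replicate 5, 1 without IS replicate 5, 200 without IS replicate 1, 145 without IR replicate 4 and 1139 without IS replicate 2. Without IR 4 and IS 2 together it was 1453. The causes were not tested.

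Replicate numbers showed no clear pairing of the libraries. For this check each gene's group mean was first subtracted from its log2 CPM. These deviations correlated between -0.19 and 0.23 for same-numbered IR and IS libraries, and in 0 of 5 pairs was the best partner the own number. So few pairs cannot exclude a pairing. With the replicate block, edgeR called 0 genes, with 2287 at an unadjusted p under 0.05.

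Over 78 genes followed through these alternatives, no called value reversed, and 23 values of 8 uncalled genes changed sign. The endothelial median stayed between 0.80 and 1.5 and the macrophage median between -1.52 and -1.0. Depth limits genes near 3 CPM, such as G530011O06Riky.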

Other observations

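Pigment cell genes did not move together against control. Their summed level was 78.0 to 173 CPM in IR, 109 to 233 CPM in IS and 41.9 to 48.1 CPM in control. Tyrp1, a melanosome enzyme, was at 36.0 to 116 CPM in IR, 45.3 to 151 CPM in IS and 8.25 to 13.9 CPM in control, while Tyr, the first enzyme of melanin synthesis, had no count in any IR or IS library. Mitf, the transcription factor of pigment cells, was at 8.14 to 17.8 CPM in IR, 13.2 to 32.3 CPM in IS and 19.2 to 27.5 CPM in control. The summed level thus followed Tyrp1 and not Mitf. These ranges were noticed in the data and were not tested.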
